A study of Homo sapiens with 6 samples.

Results

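Chromatin immunoprecipitation (ChIP) of HA-METTL14 around DHRS2 on chromosome 14 gave no more immunoprecipitated (IP) reads than scaled input reads in DRB-treated HepG2 cells. In untreated cells the same stretch held 1 broad enriched domain of 109.4 kb, at 24047801 to 24157200, called the domain below. The stretch analysed was hg19 chr14:24030000-24170000, the neighbourhood of DHRS2, and its members were all candidate islands that overlapped it, an island being a stretch of neighbouring windows that SICER joined into 1 candidate. These were 20 of 67802 islands in the DRB table and 3 of 38696 in the untreated table. The neighbourhood was selected on its untreated IP and input reads, that is on the untreated fold and width. Those are therefore given as a description without a test. The tests below, Fisher's exact and binomial, are on the DRB values, which the choice did not use although they were known. The authors' significance calls of untreated islands are quoted as they stand.

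The cells were HepG2, a human hepatocellular carcinoma line, transduced with a lentivirus that expresses METTL14 with an HA tag at its N terminus and EGFP at its C terminus, selected with puromycin and sorted for high GFP. All 6 libraries came from such cells, so the protein followed is overexpressed and tagged, and no IP from cells without the tag was analysed here. The DRB condition, 100 µM for 3 h, had 1 IP and 1 input library, and the untreated condition had 2 of each. The deposited tables give 1 IP count and 1 input count per island and condition. No error between replicates can therefore be given. All intervals are exact, at a level of 95%, and cover counting error alone, and sequencing reads are not independent molecules. The DRB islands held 2411436 IP and 2726149 input reads in all, and the untreated islands 15339872 and 16034656. Without the mitochondrial genome the DRB islands held 1977419 IP and 1330018 input reads, so there the IP was the larger. The untreated islands then held 14495388 and 14661480.

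METTL14 binds RNA and pairs with the catalytic subunit METTL3 to place N6-methyladenosine, a mark largely added while RNA is being transcribed. DRB inhibits the kinase CDK9 and so blocks the passage of RNA polymerase II into elongation. DHRS2, also called HEP27, encodes a short-chain dehydrogenase/reductase, one of a large family of NAD(P)-dependent enzymes that act on carbonyl and hydroxyl groups, and was first described in HepG2 cells arrested in growth. Its next protein-coding neighbours in RefSeq gene order (GRCh38.p14, used for names and order only) were JPH4, AP1G2 and ZFHX2 on one side and DHRS4, DHRS4L2 and CARMIL3 on the other. JPH4 encodes a junctophilin, which tethers the endoplasmic reticulum to the plasma membrane, AP1G2 a subunit of a clathrin adaptor complex, and ZFHX2 a zinc finger homeobox protein. DHRS4 encodes a carbonyl and retinal reductase of the same family as DHRS2, and DHRS4L2 is a close copy of it. Between DHRS2 and DHRS4-AS1, the antisense transcript of DHRS4, the annotation lists 10 genes, of which 6 are long non-coding RNAs, 4 are pseudogenes and 0 are protein-coding. Gene positions on hg19 were not used here, so which part of the domain DHRS2 occupies is not given.

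The DHRS2 promoter is shown because DHRS2 is the gene the neighbourhood is named for. It is the 250 bases before the annotated start (RefSeq, GRCh38.p14, chr14:23629865-23630114, plus strand, a position that cannot be set against the hg19 positions of the islands), 5′ to 3′, with the TATAAA motif in capitals.
DHRS2: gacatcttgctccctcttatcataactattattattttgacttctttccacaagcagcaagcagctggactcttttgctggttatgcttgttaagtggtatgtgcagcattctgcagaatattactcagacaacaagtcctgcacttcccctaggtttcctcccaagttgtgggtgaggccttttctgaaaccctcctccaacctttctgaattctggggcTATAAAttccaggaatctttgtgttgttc
The motif, searched as TATAAA on both strands, occurred 1 time and began 29 bases before the start. It was present in 10.7% of 35116 RefSeq promoter windows of this length. The window had 0 CG dinucleotides, against a median of 11 over all windows, and 6.06% of the windows had as few. The JPH4 window held 8 and the DHRS4 window 19 CG dinucleotides, with 0 TATAAA matches in either. Such a match is a description of the sequence and not of a bound site.

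In DRB-treated cells the neighbourhood held 20 islands with 1756 IP reads and 1655 input reads in total. Their fold, the ratio of IP to input reads multiplied by the authors' constant for that table, was 0.91 (0.85 to 0.98). They were 1.2 to 18.6 kb wide with a median of 3.3 kb, and together covered 103.6 kb. The counts were low, from 18 to 436 IP reads with a median of 48, and from 10 to 472 input reads with a median of 34.5. Of the 20 islands, 0 were in the authors' list of significant islands (false discovery rate, FDR, under 1e-04), where 4.76% of all DRB candidates and 2.80% of those on chromosome 14 were. The authors' unadjusted Poisson p was under 0.05 in 6 of the 20, where it was in 60.7% of all DRB candidates. At an FDR of 1e-05, which can only shorten the list, the count was necessarily 0, and 1.47% of all DRB candidates passed. The exact binomial test was one-sided, for IP above scaled input, and includes the counting error of the input. It called 0 of the 20 and 0.00442% of all DRB candidates at an adjusted p of 1e-04. It had an unadjusted p under 0.05 in 1 of them, and its lowest adjusted p was 0.206 (Benjamini-Hochberg over the whole table). A fold above 1 was found in 11 of the 20, against 182 of the 284 DRB islands in the flanking 1 Mb on each side and 88.5% of all DRB candidates.

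The 2 widest DRB islands, at the middle of the stretch, held 45.8% of the IP and 48.5% of the input reads. They were 18.4 and 18.6 kb wide, of 103.6 kb covered, so their share of the length was also large. Their IP densities were 20.0 and 23.4 reads per kb, against 16.9 over all DRB islands of the neighbourhood. The densest island, of 1.2 kb, had 25.8. The first, at 24077401 to 24095800, had 368 IP and 330 input reads, 0.96-fold (0.83 to 1.12). The second, at 24096801 to 24115400, had 436 IP and 472 input reads, 0.80-fold (0.70 to 0.91). Both were at or under the level of scaled input, and both lay wholly inside the untreated domain. The interval was wholly below 1 in 3 of the 20 islands and wholly above 1 in 0. Besides the second middle island these were the island at 24036001 to 24039400, to the left of the domain, with 70 IP and 111 input reads and 0.54-fold (0.40 to 0.74), and the one at 24049601 to 24054800, near the left end of the domain, with 93 IP and 114 input reads and 0.70-fold (0.53 to 0.93). The 3 had the highest input densities of the 20, at 25.4, 32.6 and 21.9 reads per kb, where the median island had 11.6.

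The highest DRB folds were in narrow islands of few reads. The island at 24130601 to 24132000 had 31 IP and 16 input reads, 1.67-fold (0.88 to 3.26). That at 24059401 to 24060600 had 31 IP and 17 input reads, 1.57-fold (0.84 to 3.02), and that at 24121201 to 24122800 had 18 IP and 10 input reads, 1.55-fold (0.68 to 3.76). These 3 reached the fold of the untreated domain, but the interval of each included 1. Among the 11 islands under 4 kb, 8 had a fold above 1, and among the 9 of at least 4 kb, 3 did. The widest of these 3, at 24133801 to 24142800 in the right part of the domain, had 117 IP and 87 input reads, 1.16-fold (0.87 to 1.55).

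In untreated cells the domain held 15482 IP reads and 11146 input reads. Its fold, made in the same way with the constant of the untreated table, was 1.49 (1.45 to 1.53). Each of the other untreated islands of the neighbourhood lay beside it. On the left, 2.6 kb away, the 22 kb island at 24023201 to 24045200 had 1715 IP and 2043 input reads, 0.90-fold (0.84 to 0.96). On the right, 0.8 kb away, the 25.2 kb island at 24158001 to 24183200 had 1689 IP and 1909 input reads, 0.95-fold (0.89 to 1.01). The 2 neighbours thus had no more IP than scaled input. Just outside the neighbourhood the nearest DRB islands had folds of 0.69 (0.46 to 1.02) on the left and 1.53 (0.98 to 2.44) on the right. The nearest untreated islands had 0.98 (0.90 to 1.07) and 1.03 (0.92 to 1.14). All of these intervals included 1. The domain alone was in the authors' significant list, which held 5.10% of all untreated candidates and 5.78% of those on chromosome 14. That call rests on the reads that chose the domain, and nothing is read from it. Because the table gives 1 sum for the whole domain, the position of the enrichment within it, and how it ends on either side, is not resolved.

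**Figure D1:**
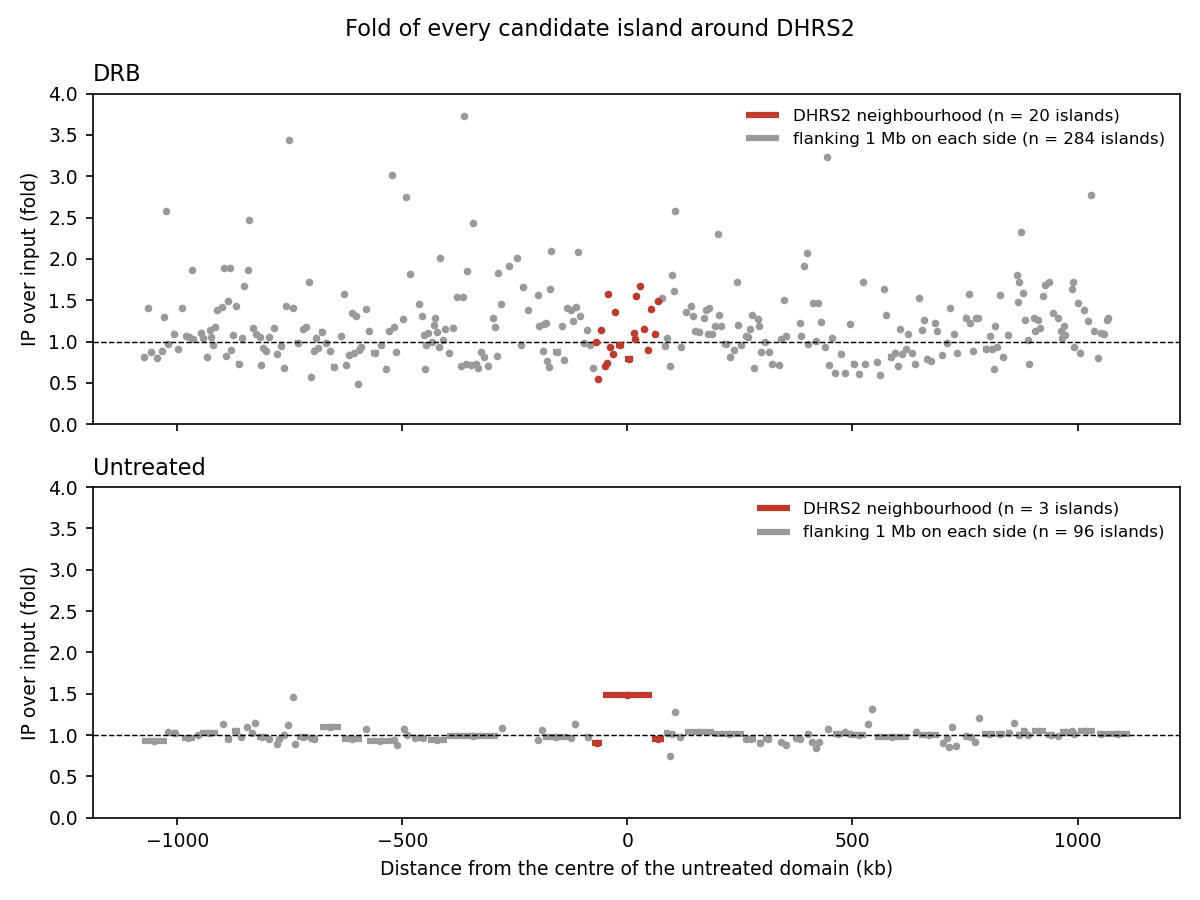
IP over input (fold, y axis) of every candidate island against its distance in kb from the centre of the untreated domain, with DRB above and untreated below; bars span islands, points mark their centres, and the dashed line is a fold of 1. The 20 DRB islands of the neighbourhood lie among those of the flanks, while in untreated cells the domain stands at 1.49 between neighbours at 0.90 and 0.95.

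**Figure D2:**
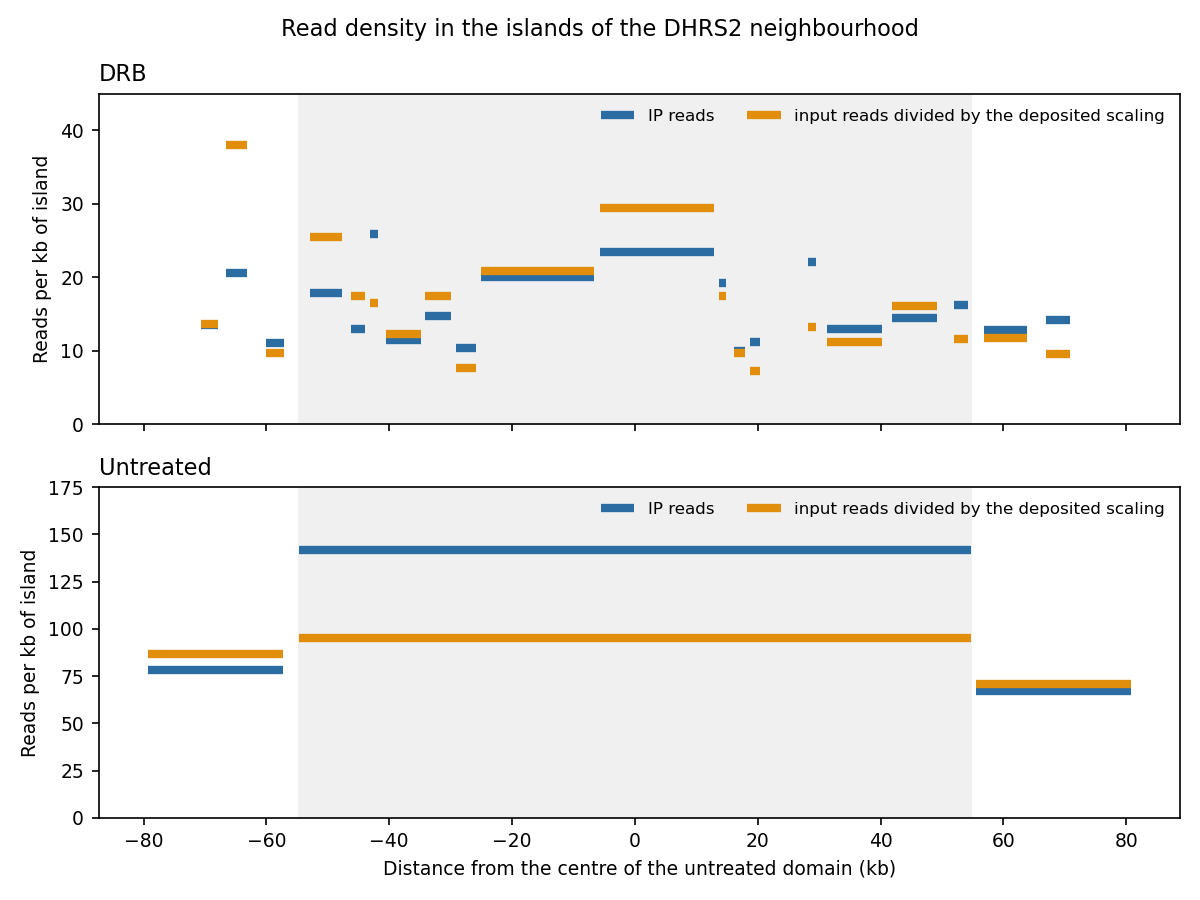
Reads per kb of island (y axis) for the IP and for the input divided by the authors' scaling, against distance in kb from the centre of the untreated domain (shaded), with DRB above and untreated below. With DRB the first of the 2 wide middle islands is near scaled input (0.96-fold, 0.83 to 1.12) and the second is below it (0.80-fold, 0.70 to 0.91). In untreated cells IP exceeds scaled input in the domain and in neither neighbour.

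Relative to the flanking 1 Mb on each side, the neighbourhood had more input reads per kb in both conditions, and in untreated cells its IP was denser still. Its input was 1.25 (1.19 to 1.31) times as dense as in the flanks with DRB and 1.27 (1.25 to 1.29) times untreated. Its IP was 1.20 (1.14 to 1.26) times as dense with DRB and 1.72 (1.69 to 1.74) times untreated. The flanks held 284 DRB islands with 15199 IP and 13776 input reads, a fold of 0.95 (0.93 to 0.97), and 96 untreated islands with 113984 IP and 123058 input reads, a fold of 0.99 (0.99 to 1.00). Over the domain alone, DRB input was 1.30 (1.22 to 1.37) times as dense as in the flanks, and untreated input 1.34 (1.32 to 1.37) times. DRB IP was 1.25 (1.18 to 1.32) times as dense and untreated IP 2.01 (1.98 to 2.05) times. These densities are per kb of island and not of sequence. Flanking islands covered 1076.8 kb with DRB and 1622.2 kb untreated. Islands over the domain covered 83.4 kb with DRB and 109.4 kb untreated, so the conditions are not measured over the same sequence. The intervals of the conditions overlapped for the input. They were far apart for the IP, but the untreated IP reads helped to choose the neighbourhood, so that distance is a description only.

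The IP to input ratio of the neighbourhood over that of the flanks was 0.96 (0.90 to 1.03) with DRB, and a difference was not detectable at this depth (two-sided Fisher's exact test on reads, p = 0.285). The interval lies below the untreated value of 1.35 (1.32 to 1.38), which is given without a test. This test compares 1 IP with 1 input library and not replicates. With flanking islands of at least 5 kb only, the ratio turned to 1.07 (two-sided Fisher's exact test, p = 0.0682), and with flanks of 2 Mb it was 0.88 (two-sided Fisher's exact test, p = 0.000309). No direction against the flanks can therefore be given for DRB. Of the flanking untreated islands, 0 of 96 reached the fold of the domain and 48 had a fold under 1. The highest, at 23358601 to 23360000, had 99 IP and 73 input reads, 1.46-fold (1.06 to 2.00). The flanks held 2 significant DRB islands, of 24 IP against 6 input reads at 23348801 to 23350400 and of 29 against 9 at 25131401 to 25134000, and 2 significant untreated islands, of 5259 IP against 5146 input reads at 23418401 to 23466200 and of 553 against 452 at 24642401 to 24651200.

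Few wide islands of untreated cells had a fold near that of the domain. Of 310 other islands of at least 20 kb on chromosome 14, the median fold was 1.03 and the highest 1.23 (1.15 to 1.33), at 28201801 to 28229200. Over all chromosomes, 2 islands of at least 20 kb had a higher fold, both of them narrower: 1.62-fold over 25.2 kb on chromosome 17 at 57902601 and 1.57-fold over 24.2 kb on chromosome 11 at 65183401. Somewhat below the domain, other chromosomes held islands of 1.40-fold over 20.4 kb, 1.37-fold over 59.4 kb and 1.30-fold over 30.6 kb. By fold the domain was 802nd of the 1973 significant islands. By width it was 23rd of 38695 nuclear candidates.

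**Figure D3:**
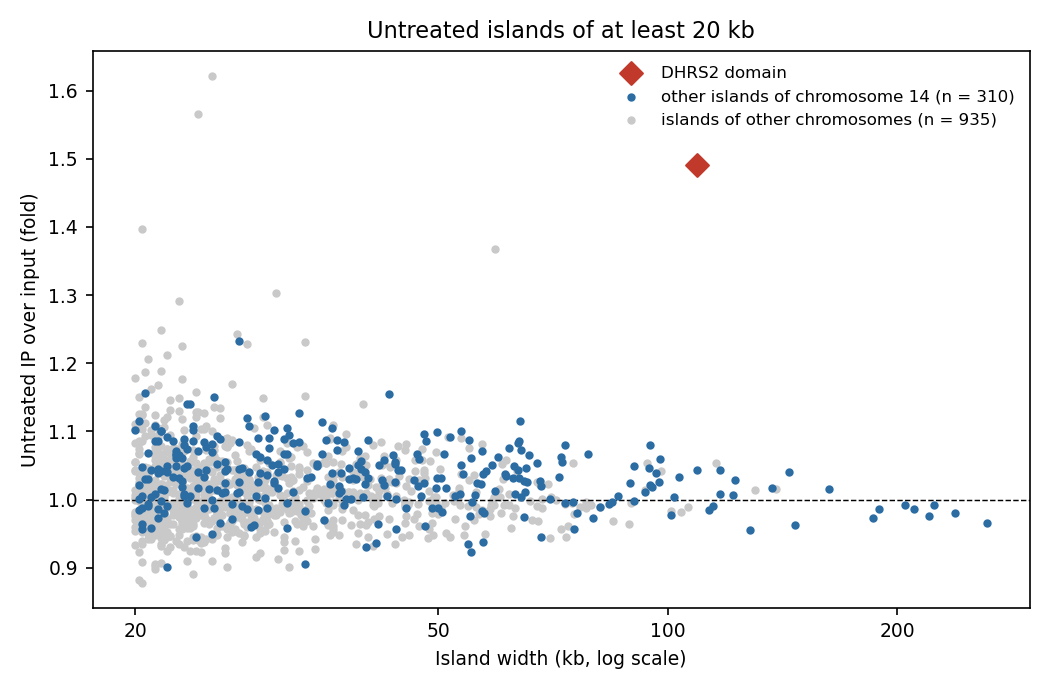
Untreated fold (y axis) against island width in kb (log scale) for every untreated island of at least 20 kb; each point is 1 island, and the dashed line is a fold of 1. The DHRS2 domain, at 109.4 kb and 1.49-fold, lies apart from the other 310 islands of chromosome 14, which reach 1.23-fold.

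Width and fold together gave the domain the largest surplus of IP reads of any nuclear island. Counted as IP reads minus input reads divided by the scaling, the surplus was 5094 reads, which is 2.30% of that in all 1973 significant islands and 27.9% of that in the 80 on chromosome 14. The second largest, 4603 reads, lay in 1.8 kb on chromosome X at 77359201. With the scaling set by the totals of nuclear islands the order turned, with 4462 reads in the domain and 4582 on chromosome X. Per kb the domain had a surplus of 46.6 reads, 178th of the nuclear candidates, so it was long and shallow. With DRB the islands over the domain had fewer IP reads than scaled input, 1468 against 1606.

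Islands taken for their width alone give a further comparison. The untreated table had 30 islands of at least 100 kb, 24 of them on chromosome 14. The 29 others had untreated folds of 0.95 to 1.05 with a median of 0.99, all below the domain's 1.49. DRB islands lay over all 30 and covered 76.2% of the domain, against a median of 75.5% of the others. Their DRB folds were 0.91 (0.85 to 0.98) at the domain and 0.81 to 1.28, with a median of 0.98, at the others, so the DRB fold of the domain lay within the range, with 7 of the 29 below it. DRB input density was 16.6 reads per kb at the domain and 8.33 to 20.6 at the others. The domain thus lay inside the range of the 29 in DRB fold, DRB input density and coverage. It lay outside the range in untreated fold, the value it was chosen on, so that contrast was favored by the choice.

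Divided by its untreated fold, the DRB fold came to 0.61 (0.57 to 0.66) at the domain and 0.83 to 1.24 at the 29 others, with a median of 0.98. The lowest of the others, at 39492201 on chromosome 14, had 0.83 (0.79 to 0.87). These ratios share 1 factor, the scaling of the tables, which moves all of them alike. The ratio was 0.63 (0.53 to 0.75) at the steeper island on chromosome 17 and 0.72 (0.55 to 0.95) at that on chromosome 11, the 2 with a higher untreated fold. The domain and these 2 were picked for a high untreated fold, which favors a low ratio, so no test is given. The flanks hold a local counterpart of like width, the 113.2 kb island at 23702601 to 23815800. It had a DRB fold of 0.88 (0.81 to 0.95) and an untreated fold of 0.98 (0.96 to 1.01). The DRB intervals of these stretches overlapped. Their untreated intervals are not compared, because the untreated fold chose the domain.

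**Figure D4:**
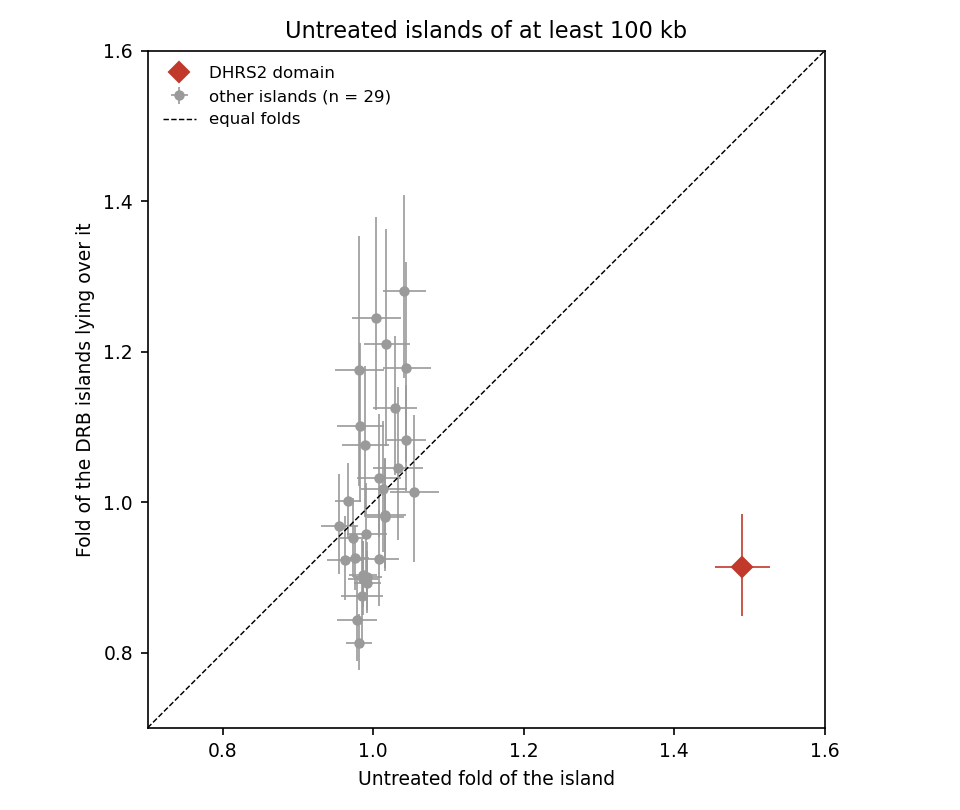
Fold of the DRB islands lying over each untreated island of at least 100 kb (y axis) against its untreated fold (x axis); points are islands, bars are exact 95% counting intervals, and the dashed line marks equal folds. The DHRS2 domain, with 0.91 on the DRB axis and 1.49 on the untreated axis, has the highest untreated fold of the 30, the others reaching 1.05.

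Along chromosome 14, windows of 140 kb were laid end to end from the start of the neighbourhood, and those with at least 1000 DRB reads were kept. The DRB fold of the window at DHRS2 was 0.90, where the 137 others ranged from 0.78 to 1.49 with a median of 1.17, and 17 of them were lower. Its DRB input density of 16.3 reads per kb was above that of 120 of the 137. The neighbourhood was therefore rich in DRB input and in the lower part of the DRB folds of its chromosome. These need not be separate traits of this stretch. Among the untreated islands of at least 100 kb, the one densest in DRB input, at 20.6 reads per kb, had a DRB fold of 0.84. The sparsest, at 8.33, had 1.28. A link between density and fold was not tested.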

How the data were processed

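ChIP-seq of HA-METTL14 was measured in 6 libraries. Per the submitters' processing notes, FastQC 0.11.5, Bowtie 1.1.2 and SICER (no version) were used with hg19. SICER's settings and the way the 2 untreated replicates were combined were not given in the sources used here. The tables have no headers. The deposited counts are whole reads per island for IP and input, with no normalization. Each deposited fold is a ratio, IP over input reads times 1 constant per table, 0.861 with DRB and 1.07 untreated. The deposited p-value and FDR are the authors', and every island with an FDR under 1e-04, and no other, was in their significant lists. Islands were whole multiples of 200 bp; positions are 1-based.

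Reads were summed over islands that overlapped the stretch by any base. Intervals are Clopper-Pearson (folds), conditional binomial (densities) and conditional exact (ratios of ratios). The members and lists were chosen with earlier results of these data known. Named islands were all members, the nearest, widest, highest and significant islands of the flanks, and untreated islands of at least 20 kb with a fold no lower than the domain's; islands of at least 100 kb, the 140 kb windows and the read surplus were added after values were seen. Alternatives were other scalings, flanks, widths, overlaps and calls. The binomial calls and the intervals were checked on simulated data. Tools were SciPy 1.17.1, pandas 2.3.3, numpy 2.4.6 and, for figures, matplotlib 3.10.9, under Python 3.11.15.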

Additional observations from a re-analysis of the deposited data

Results flagged for a closer look

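The fold of the DHRS2 neighbourhood, which includes the authors' scaling, was below 1 with DRB and above 1 in untreated cells. Before scaling, its DRB islands held more IP than input reads, 1756 against 1655, so the side of 1 depends on the scaling. With the scaling centred on the flanking islands, which themselves had a DRB fold of 0.95 (0.93 to 0.97), the DRB value was 0.96 (0.90 to 1.03) and its interval included 1. The ratio of the DRB to the untreated fold was 0.680 (0.634 to 0.731) over all islands of the neighbourhood. Each condition has 1 table, and the difference was not tested because the untreated value chose the neighbourhood. The islands of the conditions also differ in extent, covering 103.6 kb with DRB and 156.6 kb untreated.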

How the results depend on the processing

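Of 55 alternatives, 34 left the value within its interval or its call in place. Scaled by the totals of nuclear islands, the fold of the neighbourhood was 0.714 with DRB and 1.27 untreated, their ratio 0.564, and the domain ranked 2 by surplus. With islands wholly inside the stretch, or over the domain only, the untreated fold was 1.49 and the ratio to the flanks 1.50, the DRB over untreated ratio 0.605 and 0.613, and untreated input density 1.34 times that of the flanks, since the 2 untreated neighbours then drop out. The DRB ratio to the flanks was 0.880 with flanks of 2 Mb (two-sided Fisher's exact test, p = 0.000309), 1.07 with flanking islands of at least 5 kb, and 1.04 when both sides had that minimum, a choice made after the data were seen; over its 10 alternatives it ran from 0.880 to 1.07, and the cause was not tested. DRB input density over that of the flanks was 1.43 with flanks of 2 Mb and 1.08 with flanking islands of at least 5 kb. Untreated, it was 1.23 with flanks of 0.5 Mb, 1.35 with 2 Mb, 1.23 with the left and 1.31 with the right flank. The count of 0 significant DRB islands had to stay 0 at an FDR of 1e-05, which can only shorten the list. It was also 0 in the binomial test, which called only 0.00442% of all DRB candidates. Both are among the 34, and neither is a check of the count. Other alternatives among the 34 could not move either. Dropping flanking islands at or above 5 times the median input density removed 0 of the 96 untreated ones. The call of the untreated domain, with a deposited FDR of 0, had to stand at 1e-05. The 34 are therefore not a count of checks passed. No paired analysis was possible because each table has 1 sum per condition. DRB depth limits single islands, whose median of 48 IP reads leaves wide intervals.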
